A study of Mus musculus with 12 samples.

Results

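The 9 genes described here encode liver enzymes and regulatory subunits that build, store and break down glycogen: Pygl, Gys2, Gbe1, Ugp2, Gyg, Phka2, Ppp1r3b, Ppp1r3c and Ppp1r3g. They were taken by name as a pathway, with no threshold on measured values, and 9 of 9 were found among the 11968 genes of the count table. RNA was sequenced from the livers of C57BL/6J mice in 4 groups of 3 livers each: females on chow, females on chow with simvastatin, males on chow and males on chow with simvastatin. Simvastatin, an inhibitor of HMG-CoA reductase, was mixed into the diet at 0.1 g/kg for 4 weeks, starting at an age of 8 to 10 weeks. The labels give this dose per kg of body weight, whereas the study's methods give it per kg of food. The labels also name the same diet formulation for both diets, whereas the methods keep that formulation for the statin diet. All livers came from separate intact mice of 1 inbred strain, so no transgene or clone limits the groups, and the replicate numbers do not pair mice across groups. Sex was compared between intact mice, in which hormones and sex chromosomes vary together.

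Glycogen is the branched glucose polymer in which the liver stores glucose after a meal and from which it releases glucose between meals. UDP-glucose pyrophosphorylase (Ugp2) makes the glucose donor, glycogenin (Gyg) starts the chain, liver glycogen synthase (Gys2) lengthens it and the branching enzyme (Gbe1) adds branches. Liver glycogen phosphorylase (Pygl) removes glucose units from the chain ends and is switched on by phosphorylase kinase, of which Phka2 is the liver regulatory alpha subunit. The Ppp1r3 proteins bring protein phosphatase 1 to the glycogen particle, where it acts on glycogen synthase and phosphorylase.

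The stretch before the RefSeq transcription start is shown for Pygl and Ppp1r3g, because in females their statin and chow livers did not overlap. It is also shown for Ppp1r3c as another phosphatase subunit. RefSeq promoter entries (GRCm38.p6) matched 7 of the 9 members, with 8 entries. Capitals mark matches to an E-box (CACGTG), a GC box (GGGCGG), the CCAAT box or the core of a cAMP-response element (TGACG) on either strand. The Pygl stretch is chr12:70227684-70227933 on the minus strand, and ends 1 base before the RefSeq start. The Ppp1r3c stretch is chr19:36736654-36736854 on the minus strand. The Ppp1r3g stretch is chr13:35967656-35967852 on the plus strand. The latter 2 stretches stop where the GENCODE vM21 annotation of GRCm38 places an exon of the gene, and the bases that follow are not shown. The Pygl and Ppp1r3g stretches lie within the span that GENCODE gives the gene. That span begins further upstream, at 70231488 for Pygl and at 35958839 for Ppp1r3g.
Pygl: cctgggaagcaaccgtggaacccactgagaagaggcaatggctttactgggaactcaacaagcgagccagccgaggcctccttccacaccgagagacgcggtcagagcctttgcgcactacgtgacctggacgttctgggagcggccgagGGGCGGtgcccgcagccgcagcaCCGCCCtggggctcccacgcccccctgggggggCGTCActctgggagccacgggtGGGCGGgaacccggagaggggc
Ppp1r3c: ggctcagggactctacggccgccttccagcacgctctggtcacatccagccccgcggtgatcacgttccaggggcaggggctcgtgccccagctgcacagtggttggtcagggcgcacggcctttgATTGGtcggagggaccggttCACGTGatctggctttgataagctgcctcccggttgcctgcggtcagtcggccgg
Ppp1r3g: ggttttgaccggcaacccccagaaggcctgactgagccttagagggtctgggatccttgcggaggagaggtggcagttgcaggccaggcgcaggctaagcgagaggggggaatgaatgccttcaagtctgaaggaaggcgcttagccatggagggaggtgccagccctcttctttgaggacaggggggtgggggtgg

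The search covered the 250 bases before the RefSeq start in all 32851 entries. Pygl had 3 GC boxes and 1 cAMP-response core there, and no E-box. Ppp1r3c had 1 E-box, between 104 and 99 bases before the start, and 1 CCAAT box. Ppp1r3g had a GC box, a CCAAT box and a cAMP-response core, none of which lies wholly in the printed stretch, so that stretch holds no capitals. Of all entries, 6.02% held an E-box, 32.7% a GC box, 33.8% a CCAAT box and 17.8% the cAMP-response core. A TATA box (TATAAA), found in 12.4% of entries, and a STAT site (TTCNNNGAA), found in 7.02%, were in no entry of the members. No match overlapped another within the members' entries. The upstream bases were 69.2% G or C for Pygl, 63.2% for Ppp1r3g and 64.4% for Ppp1r3c, against a median of 52.4% over all entries.

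Between 46066381 and 60419223 reads were counted per liver, so that 3 reads, the floor used here, amount to between 0.0497 and 0.0651 CPM (reads scaled to a common library total). The floor covers counting error alone. These totals exceed the average depth stated in the study's methods, and whether a counted read is a fragment or a read end is not given in the sources used here. Sex-linked transcripts went with the labels in 12 of 12 livers: Xist was at 203 CPM or more in the 6 female livers and at 0.969 CPM or less in the 6 male livers. Hepatocyte markers (7 of 8 found) summed to between 86350 and 158700 CPM, and the 7 muscle and fat markers together to 0.121 CPM at most, with Pvalb at 0 in 12 livers. The 10 markers of Kupffer and other immune cells summed to between 368 and 694 CPM in females and between 235 and 379 CPM in males. Markers of endothelial, stellate and bile duct cells (12 of 12 found) summed to between 247 and 359 CPM in females and between 199 and 273 CPM in males. In whole liver, fewer cells of a type cannot be told apart from less RNA per cell. Female statin replicate 3 stood apart from the other female livers: it was the lowest of the 6 in 8 of 8 genes that rise with feeding. Fasn (fatty acid synthase) was at 242 TMM-normalized CPM in that liver, against 1096 and 1763 in the other 2 females on statin and between 2503 and 5549 in females on chow. Of this list, the study itself reports Acly, Fasn, Scd1 and Elovl6 as reduced by statin in females. Among 8 genes that rise with fasting, the same liver was the highest female in 3 and the lowest in 1. Among males, male statin replicate 3 was the highest of the 6 in 7 of the 8 feeding genes, and the highest male for Ppp1r3g and Gyg. The part of feeding state and of the non-hepatocyte markers in the results below was not tested.

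Per kb of exon, the highest of the members was Ugp2, at 230 TMM-normalized CPM per kb (mean of 12 livers). It was followed by Gys2 at 101, Pygl at 74.9, Gbe1 at 33.6, Ppp1r3b at 27.3, Ppp1r3c at 14.9, Phka2 at 5.19, Gyg at 3.24 and Ppp1r3g at 2.41. The length used is that of all annotated exons of a gene merged, such as 6895 bases for Pygl and 2657 for Gys2, and the order depends on it. The ranges over the 12 livers were apart between Ugp2 and Gys2, between Ppp1r3c and Phka2, and between Phka2 and Gyg. The other neighbors in this order overlapped. As a ratio of highest to lowest liver, Ppp1r3g had the widest range, from 0.270 to 7.29 per kb, and Phka2 the narrowest, from 4.81 to 5.79 per kb. The order of means differed in females on chow alone. There Pygl (106 per kb) was above Gys2 (93.5), and Ppp1r3g (6.14) above Phka2 (5.03) and Gyg (3.30).

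**Figure D1:**
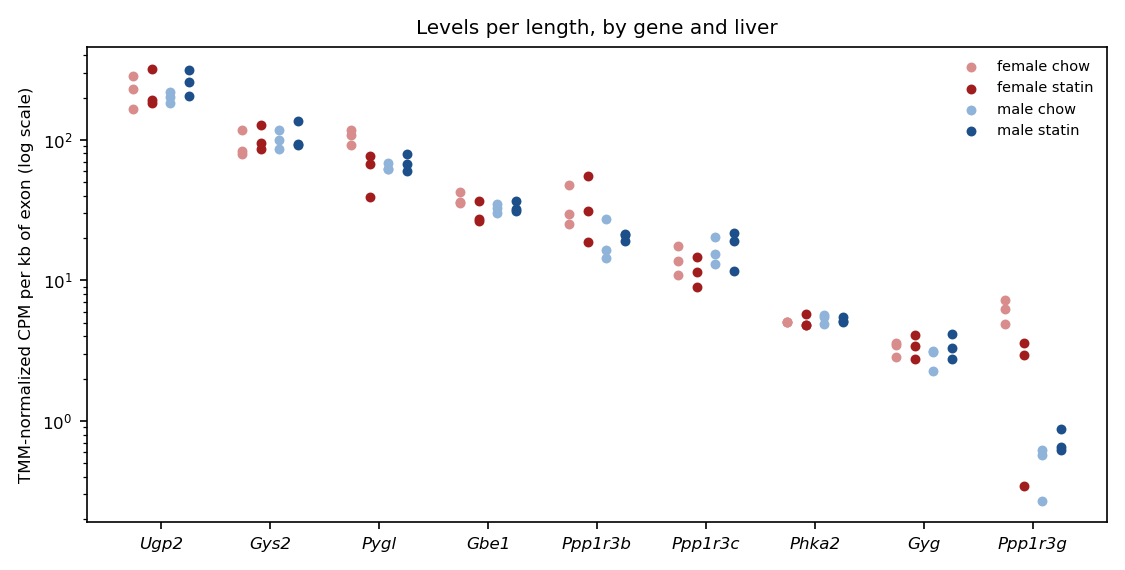
Levels of the 9 members as TMM-normalized CPM per kb of exon on a log axis, in order of their mean, with 1 point per liver colored by group. Ugp2 lies highest, between 167 and 321 per kb, and Ppp1r3g spreads from 0.270 to 7.29 per kb with 5 of its 6 female livers above the 6 male livers.

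Pygl, the phosphorylase that frees glucose from liver glycogen, was lower in females on statin than in females on chow. The gene lies on chromosome 12 (70190811 to 70231488, minus strand, GRCm38). In females on chow the 3 livers were at 811, 629 and 746 TMM-normalized CPM, and in females on statin at 465, 527 and 269. The groups did not overlap, and the lowest liver was female statin replicate 3. The group means were 729 ± 91.9 and 420 ± 135 (SD, n = 3), a difference of -0.79 on the log2 scale (SE 0.22, 95% interval -1.27 to -0.32). In edgeR's quasi-likelihood test the unadjusted p was 0.00324, and the p adjusted over all 11968 genes was 0.200. DESeq2 gave an adjusted p of 0.0256 for the same comparison. Without female statin replicate 3 the difference was -0.54 (edgeR, adjusted p 0.419). This gene is one that the study itself describes from these livers, so its direction is no independent finding.

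In males, Pygl was at 427, 429 and 473 on chow and at 546, 463 and 417 on statin. These groups overlapped, and the log2 difference was 0.10 (95% interval -0.37 to 0.57). The interaction, the female change with statin less the male change, was -0.90 on the log2 scale (SE 0.31, unadjusted p 0.0125, adjusted p 0.438 in edgeR). On chow the 3 female livers lay above the 3 male livers, with a difference of 0.72 (SE 0.22, adjusted p 0.0557 in edgeR and 0.0130 in DESeq2). On statin the sexes overlapped, with a female minus male difference of -0.18 (95% interval -0.65 to 0.29).

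Phka2, the regulatory subunit of the kinase that activates phosphorylase, varied little. It lies on the X chromosome (160502166 to 160598878, plus strand). The 3 livers were at 30.6, 30.5 and 30.6 in females on chow, and at 29.4, 35.1 and 29.2 in females on statin. In males they were at 33.4, 29.9 and 34.5 on chow, and at 31.2, 33.1 and 30.6 on statin. The groups overlapped within each sex and within each diet. The log2 difference with statin was 0.03 in females (95% interval -0.20 to 0.27) and -0.04 in males (-0.28 to 0.19). With single livers left out the male value lay between -0.10 (without male chow replicate 2) and -0.0023 (without male chow replicate 3). Of its exonic bases, 115 are shared with the antisense gene Gm15243, and the strand setting of the counting is not given in the sources used here.

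**Figure D2:**
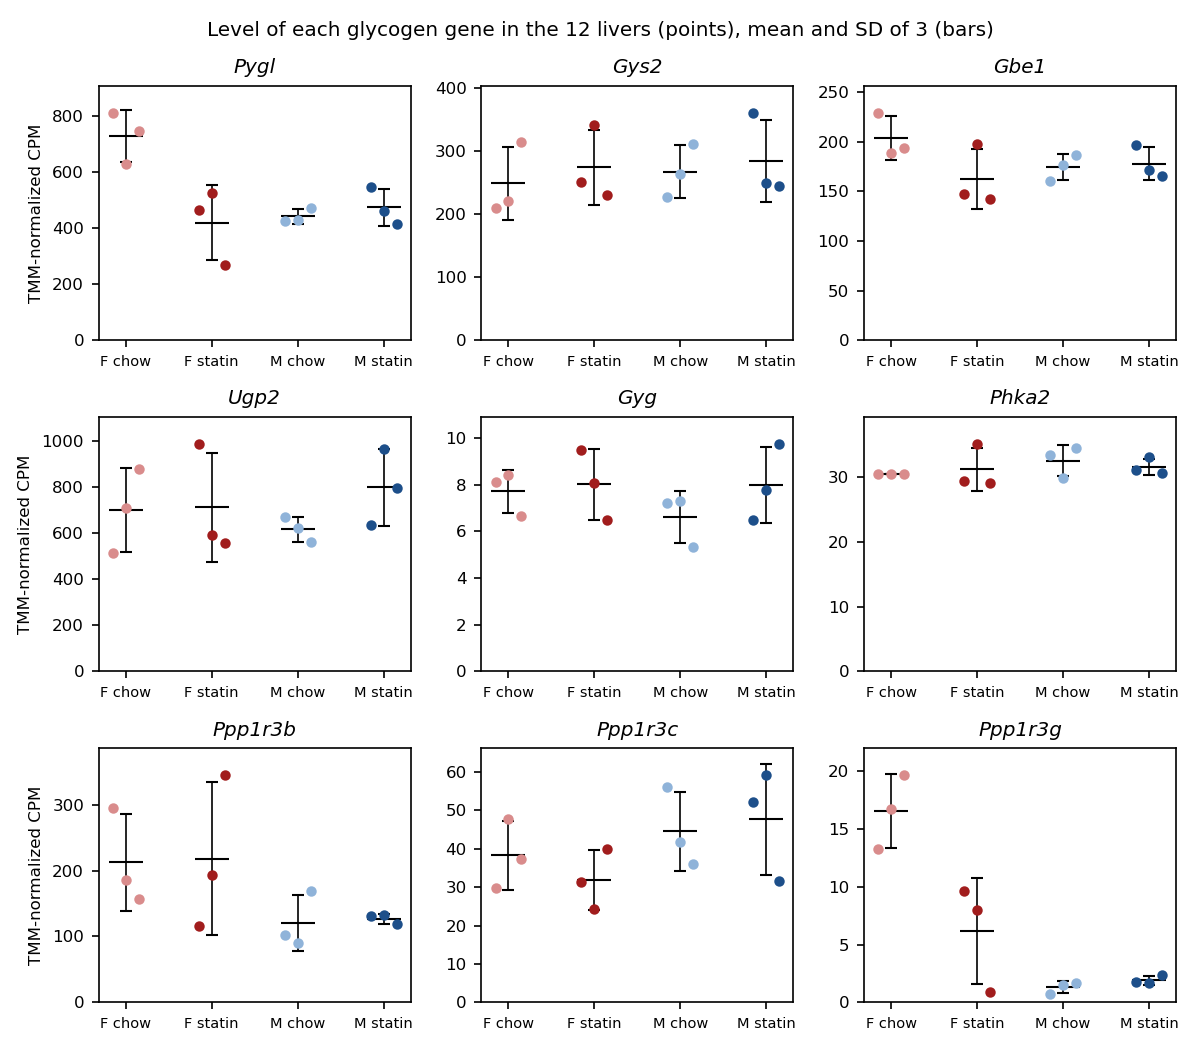
TMM-normalized CPM of each member in the 12 livers, with 1 panel per gene and an axis that starts at 0. Points are livers and bars the mean and SD of 3 livers; Pygl and Ppp1r3g show females on chow above all other livers, with the third female liver on statin lowest among the females.

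The 4 genes of the synthetic steps did not pass the test with statin in either sex. Gys2, the liver glycogen synthase, was at 209, 221 and 314 in females on chow and at 251, 341 and 229 in females on statin. In males it was at 227, 263 and 311 on chow and at 360, 249 and 244 on statin. Within each sex the groups overlapped, and the log2 difference was 0.14 in females (95% interval -0.34 to 0.62) and 0.09 in males (-0.39 to 0.57).

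Gbe1, the branching enzyme, was at 229, 189 and 194 in females on chow and at 147, 198 and 143 in females on statin, where replicate 2 lay within the chow range. The log2 difference was -0.33 (SE 0.15, 95% interval -0.65 to 0.0012, unadjusted p 0.0507, adjusted p 0.480 in edgeR). It was -0.49 without female statin replicate 2 and -0.22 without female statin replicate 3. In males it was at 161, 177 and 187 on chow and at 197, 172 and 166 on statin, a log2 difference of 0.03 (95% interval -0.30 to 0.35). On chow the female livers lay above the male livers, with a difference of 0.22 (adjusted p 0.405 in edgeR), which was 0.12 without female chow replicate 1.

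Ugp2, which makes UDP-glucose, spread widely within groups. Its levels were 512, 710 and 877 in females on chow, 986, 594 and 557 in females on statin, 668, 624 and 560 in males on chow, and 634, 965 and 796 in males on statin. All 4 groups overlapped. The log2 difference with statin was 0.03 in females (95% interval -0.52 to 0.57) and 0.37 in males (-0.17 to 0.92, unadjusted p 0.164, adjusted p 1.00 in edgeR). The male value was 0.21 without male statin replicate 2. The gene shares 78 exonic bases with Gm12043 on the other strand.

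Gyg, the primer of the chain, was between 5.35 and 9.73 TMM-normalized CPM over all 12 livers, with overlap of the groups in each comparison. Its log2 difference with statin was 0.05 in females (95% interval -0.38 to 0.48) and 0.27 in males (-0.16 to 0.70). The male value was 0.11 without male statin replicate 3 and 0.14 without male chow replicate 3.

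Of the phosphatase subunits, Ppp1r3g was higher in females than in males on chow and was the 1 member to pass the adjusted threshold in edgeR in any of the 5 comparisons. DESeq2 also called Pygl, as given above. The gene lies on chromosome 13 (35958839 to 35970388, plus strand). In females on chow it was at 13.3, 16.7 and 19.7 TMM-normalized CPM (695, 858 and 901 reads), and in males on chow at 0.728, 1.54 and 1.67 (39, 97 and 89 reads). The lowest of these females lay far above the highest male. The female mean of 16.6 ± 3.19 compared with a male mean of 1.31 ± 0.512 (SD, n = 3), which is 12.5-fold or 3.65 on the log2 scale (SE 0.63, 95% interval 2.28 to 5.02, adjusted p 0.00346 in edgeR). Over the alternatives in which it was tested this difference lay between 2.93 and 3.85, with adjusted p-values between 1.481e-07 and 0.0207.

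In females on statin, Ppp1r3g was at 9.62, 7.97 and 0.934. All of these livers were below the females on chow, and replicate 3 was within the range of the males. The log2 difference with statin in females was -1.42 (SE 0.56, 95% interval -2.65 to -0.19, unadjusted p 0.0268, adjusted p 0.387 in edgeR), and -0.90 without female statin replicate 3 (adjusted p 0.514). In males on statin it was at 1.76, 1.66 and 2.37, overlapping the males on chow, with a log2 difference of 0.55 (95% interval -0.78 to 1.89). This male value was 0.27 without male chow replicate 1, and 0.36 with limma at a pseudocount of 1. The interaction was -1.97 (SE 0.83, unadjusted p 0.0350, adjusted p 0.572). On statin the female minus male difference was 1.68 (SE 0.59, adjusted p 0.128 in edgeR), and 2.18 without female statin replicate 3 (adjusted p 0.00146). With limma it was 0.96 at a pseudocount of 1 and 1.11 at a pseudocount of 0.1.

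Ppp1r3b, the liver-type glycogen-targeting subunit, had its widest spread in females. It was at 295, 185 and 156 in females on chow and at 116, 193 and 344 in females on statin. The highest of all livers was female statin replicate 3, the liver in which Pygl and, among females, Ppp1r3g were lowest. In males it was at 102, 89.5 and 169 on chow and at 130, 133 and 118 on statin. The log2 difference with statin was 0.04 in females (95% interval -0.75 to 0.82) and 0.08 in males (-0.70 to 0.86). Females minus males was 0.82 on chow (SE 0.36, unadjusted p 0.0423, adjusted p 0.182 in edgeR) and 0.78 on statin (SE 0.36, unadjusted p 0.0526, adjusted p 0.267). Without female chow replicate 1 the former was 0.50, and without female statin replicate 3 the latter was 0.29. In both diets the sexes overlapped.

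Ppp1r3c, a subunit also found in muscle, was at 29.8, 47.7 and 37.4 in females on chow and at 31.4, 24.3 and 39.9 in females on statin. In males it was at 55.9, 41.8 and 35.9 on chow and at 52.2, 59.1 and 31.5 on statin. The groups overlapped throughout. The log2 difference with statin was -0.26 in females (95% interval -0.84 to 0.31) and 0.10 in males (-0.48 to 0.67). The female value was -0.07 without female chow replicate 2 and -0.105 without female statin replicate 2. It was -0.41 without female chow replicate 1 and -0.44 without female statin replicate 3. Its female minus male difference on statin, -0.58 (SE 0.26, unadjusted p 0.0490, adjusted p 0.254 in edgeR), had the opposite sign to those of the other 2 subunits.

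**Figure D3:**
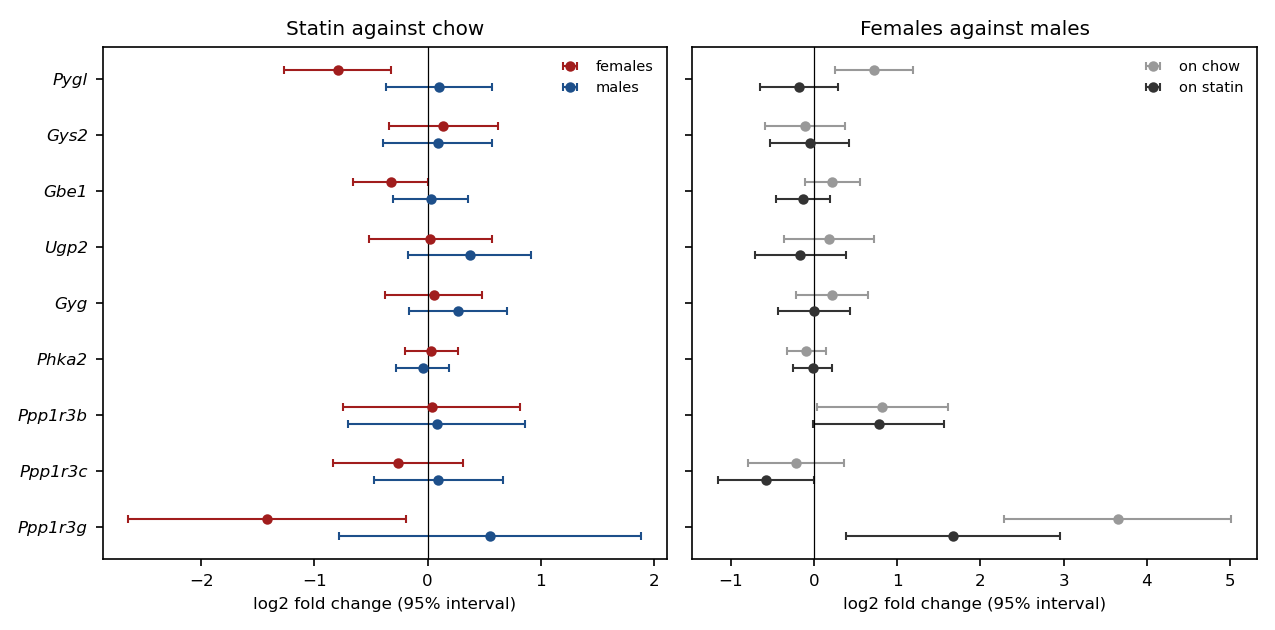
Log2 fold changes of the 9 members with 95% intervals from edgeR, for statin against chow in females and in males (left) and for females against males on chow and on statin (right). In females the intervals of Pygl (-1.27 to -0.32) and Ppp1r3g (-2.65 to -0.19) lie below 0, and on chow the interval of Ppp1r3g lies between 2.28 and 5.02.

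Counted together, 0 of 9 members passed an adjusted p of 0.05 in edgeR for statin in females, where 0.1% of all tested genes did. At an unadjusted p under 0.05 there were 2 of 9, both lower, against 10.5% of all genes. The same 2 had statin and chow livers that did not overlap, against 12% of all genes. DESeq2 called 1 member, and limma called 0. The median log2 difference over the 9 members was 0.03, against 0.01 over all genes.

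In males, edgeR called 0 of 9 members against 0% of all genes, and at an unadjusted p under 0.05 the count was 0 against 1.96%. No member had groups apart, against 7.95% of all genes, and DESeq2 and limma called 0. Of the 9, 8 had a log2 difference above 0, with a median of 0.10 and a range of -0.04 to 0.55, where 6104 of the 11968 genes were above 0 with a median of 0.0036. Of these 9 values, 5 turned direction when single livers were left out, and those of Phka2, Ugp2, Gyg and Ppp1r3g moved by over 1.5 times, as given above. For the interaction of sex and statin, edgeR called 0 members against 0% of all genes, DESeq2 and limma called 0, and 2 of 9 had an unadjusted p under 0.05 against 8.01%. The tests within sexes and between sexes share livers, so their values are not independent.

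Between the sexes on chow, 1 of 9 members passed the adjusted threshold in edgeR, against 10.4% of all genes, a share near the background. At an unadjusted p under 0.05 there were 3 of 9 (Pygl, Ppp1r3b and Ppp1r3g, all higher in females), against 24.9%. Groups were apart for 3 of 9 (Pygl, Gbe1 and Ppp1r3g), against 37.7%. On statin 0 of 9 passed the adjusted threshold in edgeR, DESeq2 and limma, against 6.28% of all genes in edgeR. There 2 of 9 had an unadjusted p under 0.05, against 19.4%, and 0 of 9 had sexes that did not overlap, against 19.6%.

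Among 32 other genes of glycogen metabolism, 27 were tested and 0 passed the adjusted threshold for statin in females or in males in edgeR. Of all genes, 0.1% passed it in females and 0% in males. In females 3 of the 27 had an unadjusted p under 0.05, a share near the 10.5% of all genes at that threshold. Calm3, a calmodulin gene whose protein is also the delta subunit of phosphorylase kinase, was at 61.1 ± 5.23 on chow and 49.5 ± 3.44 on statin, a log2 difference of -0.30 (adjusted p 0.331). Phkb, the beta subunit of phosphorylase kinase, was at 29.8 ± 2.13 and 25.1 ± 1.45, a difference of -0.25 (adjusted p 0.449). Epm2a, the glycogen phosphatase laforin, was at 7.58 ± 1.09 and 9.41 ± 0.939, a difference of 0.31 (adjusted p 0.463). The median over the 27 was -0.12 in females and -0.03 in males.

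For the interaction of sex and statin, 0 of the 27 passed the adjusted threshold in edgeR, against 0% of all genes. An unadjusted p under 0.05 was reached by 8.01% of all genes. Slc37a4, the transporter that carries glucose 6-phosphate into the endoplasmic reticulum, had an interaction of -0.49 (unadjusted p 0.0396, adjusted p 0.590). Epm2a had one of 0.43 (unadjusted p 0.0492, adjusted p 0.619).

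Of the genes next to the members in the pathway, 6 had an unadjusted p above 0.05 for statin in both sexes. G6pc, the glucose-6-phosphatase that releases free glucose, differed with statin by -0.12 in females and 0.56 in males (unadjusted p 0.727 and 0.120). Pgm1 and Pgm2, which interconvert glucose phosphates, differed by 0.21 and -0.22 in females and by -0.16 and -0.05 in males. Gaa, the lysosomal glucosidase, differed by 0.07 and -0.11. Gsk3a and Gsk3b, the kinases that inhibit glycogen synthase, differed by -0.07 and -0.03 in females and by 0.12 and -0.01 in males. Pygm, Phkg1, Ppp1r3a, Ppp1r3d and Ppp1r3f were below the filter on low counts and were not tested.

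**Figure D4:**
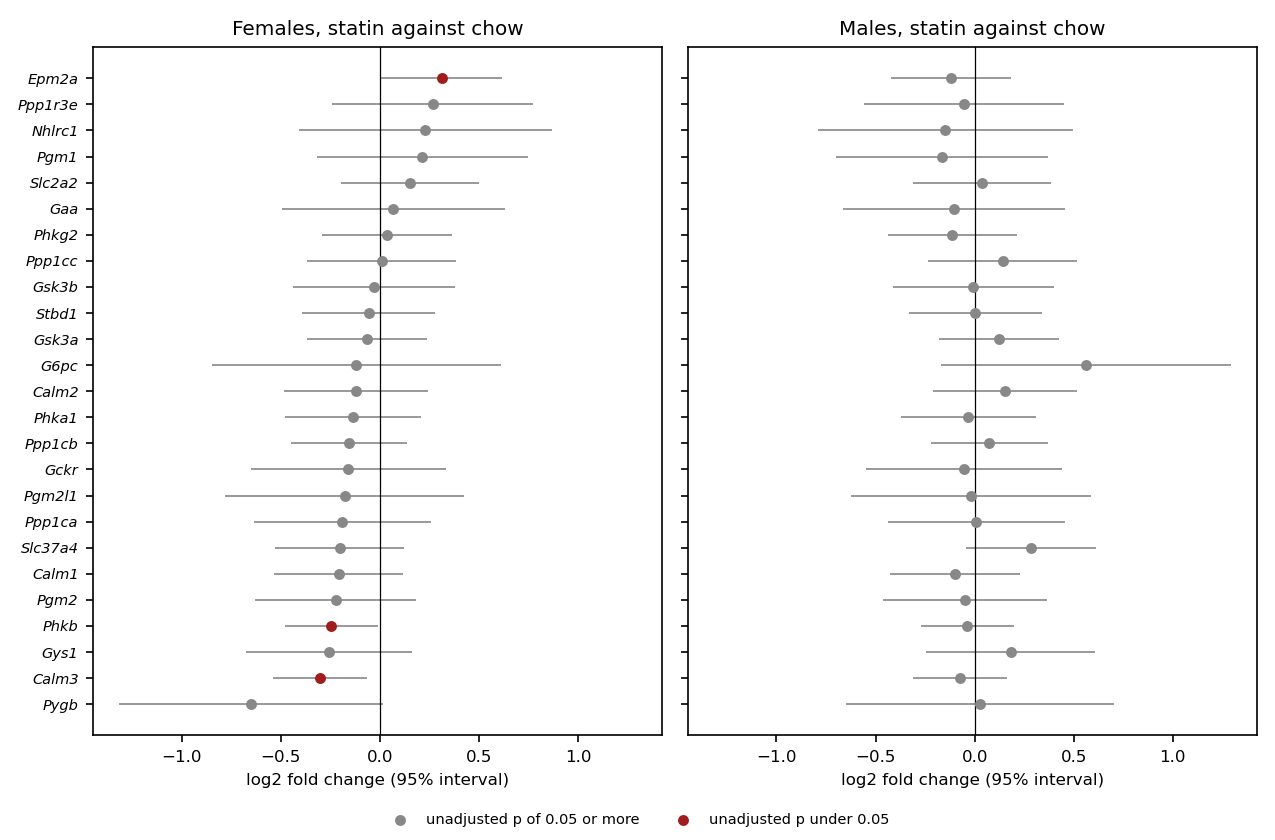
Log2 fold changes with 95% intervals for statin against chow in 25 of the other glycogen genes that were tested, in females (left) and males (right), ordered by the female value on shared axes. Red points have an unadjusted p under 0.05 (Calm3, Phkb and Epm2a in females), and 0 of the 25 passed an adjusted p of 0.05 in edgeR.

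Between the sexes on chow, 4 of the 27 passed the adjusted threshold in edgeR, all higher in females, where 10.4% of all genes passed. Pygb, the brain-type phosphorylase, was at 11.7 ± 3.21 in females and 5.08 ± 1.21 in males, a log2 difference of 1.20 (adjusted p 0.0288). Pgm2 was at 6.60 ± 1.78 and 3.64 ± 0.490, a difference of 0.86 (adjusted p 0.0128). Gys1, the glycogen synthase of muscle and other tissues, was at 4.40 ± 0.545 and 2.56 ± 0.423, a difference of 0.78 (adjusted p 0.0245), and Calm3 differed by 0.60 (adjusted p 0.00470). At an unadjusted p under 0.05, which 24.9% of all genes reached, there were 7 more: G6pc (1.03), Slc37a4 (0.48), Calm2 (0.40) and Phkb (0.28) were higher in females, and Stbd1 (-0.47), Epm2a (-0.47) and Phkg2 (-0.43) lower. On statin 0 of the 27 passed in edgeR, against 6.28% of all genes. Calm3 (0.36), Pgm2 (0.69) and Stbd1 (-0.54) had an unadjusted p under 0.05, which 19.4% of all genes reached.

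Genes most like Pygl over the 12 livers were named by Pearson's r of log2(TMM-normalized CPM + 1), as a description. They were Pdha1 (r = 0.974), a subunit of pyruvate dehydrogenase, Ulk1 (r = 0.944), an autophagy kinase, and Gstm1 (r = 0.942), a glutathione transferase. Pdha1 was between 181 and 197 in females on chow, at 156, 169 and 129 in females on statin, and between 145 and 169 in males. Genes most like Ppp1r3g were Il34 (r = 0.973), a cytokine, Efemp1 (r = 0.968), an extracellular matrix protein, and Nupr1 (r = 0.965), a stress-response gene. Il34 was between 4.28 and 4.56 in females on chow, at 3.27, 3.57 and 1.13 in females on statin, and between 1.42 and 1.99 in males. For each of these 6 genes female statin replicate 3 was the lowest female liver, as it was for Pygl and Ppp1r3g. The 6 were picked for likeness over these same livers, so this is no separate evidence on that liver. The livers share the 4 group differences, which enter r.

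The 8 genes known to rise with feeding and with insulin are given beside Pygl and Ppp1r3g. In females on statin 8 of 8 had a log2 difference below 0, with a median of -1.51. Of these, 6 had an unadjusted p under 0.05, against 10.5% of all genes. None passed the adjusted threshold in edgeR, against 0.1% of all genes. Acly (ATP citrate lyase) had -2.12 (adjusted p 0.0968) and Fasn -1.85 (adjusted p 0.233). On chow 7 of the 8 were higher in females than in males past the adjusted threshold, which 10.4% of all genes passed. The median over the 8 was 2.88. In males on statin the median was 0.50, and 0 of the 8 had an unadjusted p under 0.05, against 1.96% of all genes. The part of these genes' state in the values of Pygl and Ppp1r3g was not tested.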

How the data were processed

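RNA-seq was performed on liver of 12 mice, 3 in each of 4 groups. Libraries were made by the authors from poly(A) RNA with a strand-specific kit. According to the submitters' processing notes, reads were aligned to GRCm38 with STAR 2.4.1a, counted with HTSeq (strand setting not given in the sources used here) and analyzed with edgeR 3.28.1. The authors deposited raw read counts of 11968 genes, in a table named as TMM-normalized, and CPM values of 48526 genes. In the deposited values, the count table holds exactly the genes that exceed 1 CPM in 6 or more livers. The CPM values gave back whole reads in 100% of cells (tolerance 0.05 reads), and 0 cells differed from the counts, so the planned count test was used.

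Counts were fitted with edgeR 4.0.16 (quasi-likelihood, TMM, R 4.3.3), with all 12 livers in one fit of 4 group means and no covariate. Tests were two-sided, and p-values were adjusted over all genes by the Benjamini-Hochberg method. Standard errors were derived from the fold change and the F statistic. Alternatives used DESeq2 1.42.0, limma 3.58.1 on log2(TMM-normalized CPM + 1 or + 0.1), other normalizations and filters, each sex alone, a replicate block, and each liver left out. Levels are TMM-normalized CPM. The spread measured is that between mice.

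The members and lists were chosen with earlier results of these data known. The text names all 9 members, the other glycogen genes at an unadjusted p under 0.05 in any of 5 comparisons, further pathway genes (Pgm2, Pgm1, Gaa, Gsk3a, Gsk3b and G6pc), and the 3 genes most like a member over the livers, given for Pygl and Ppp1r3g. Some genes under this rule are not reported here. Gene positions and lengths are from GENCODE vM21, promoters from RefSeq GRCm38.p6. The fit was tested on simulated counts of 11968 genes for statin against chow in females: it recovered 59% of 100 genes changed by 2-fold and 11% of 100 changed by 1.5-fold, with 2 false calls.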

Additional observations from a re-analysis of the deposited data

How the results depend on the processing

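For statin in females, the count of members past an adjusted p of 0.05 was 0 in edgeR and 1 with DESeq2 (Pygl). It stayed at 0 with each liver left out. For females against males on chow the count of 1 became 2 with DESeq2, with no filter on low counts and with a correction for transcript length (chosen after seeing the data). It became 0 with a filter of 5 CPM in 6 livers, under which Ppp1r3g was not tested. With each liver left out it was between 1 and 2, and was 2 without female statin replicate 2 or replicate 3. The added member was Pygl throughout, with adjusted p-values between 0.00789 and 0.0355. For females against males on statin the count of 0 became 1 with no filter (Ppp1r3g, 1.66, adjusted p 0.0102), and was between 0 and 1 with each liver left out, at 1 without female statin replicate 3. The cause of these moves was not tested.

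Changes near 0 turned direction. With library size alone, the log2 difference in females became -0.0024 for Ugp2, -0.0054 for Phka2 and -0.015 for Ppp1r3b, the interaction of Gys2 became -0.0047, and the sex difference of Gyg on statin became -0.084. Library size alone also moved the median of all genes in that last comparison to -0.10. Ppp1r3b in females was -0.049 with limma at either pseudocount (-0.04883 and -0.04948). Gyg on statin was -0.0129 with DESeq2 size factors, -0.0128 with DESeq2, -0.021 with no filter and -0.0062 without the 10 highest genes. Phka2 on statin was 0.0010 with the stricter filter and 0.022 with the length correction. The replicate block, whose numbers do not pair mice (mean correlation of same-numbered deviations -0.0916 over 18 pairs, 5 of them over 0.1), changed no call of a member. Single same-numbered correlations ran from -0.697 to 0.566. Those of different numbers ran from -0.63 to 0.718 (mean 0.0479), with 14 of 36 over 0.1. Some livers of different groups thus shared deviations that neither the main fit nor the block models, and their source was not tested. With the block Ppp1r3b in females was -0.046 and Gyg on statin -0.020.

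With each liver left out, values that turned direction ranged as follows. In females Gys2 was -0.049 to 0.35, Ugp2 -0.27 to 0.23, Gyg -0.080 to 0.20, Phka2 -0.060 to 0.097 and Ppp1r3b -0.44 to 0.36. In males Pygl was -0.0087 to 0.19, Gys2 -0.12 to 0.21, Gbe1 -0.053 to 0.078, Ppp1r3b -0.092 to 0.41 and Ppp1r3c -0.090 to 0.32. The interaction was -0.14 to 0.26 for Gys2, -0.024 to 0.14 for Phka2 and -0.53 to 0.27 for Ppp1r3b. Between the sexes, on chow Gys2 was -0.32 to 0.018 and Ugp2 -0.021 to 0.35. On statin Pygl was -0.39 to 0.065, Gys2 -0.26 to 0.15, Gyg -0.15 to 0.17 and Phka2 -0.13 to 0.032. Of 1003 values of members under alternatives, 934 kept direction and side of the threshold, 8 newly passed it and 61 turned direction.

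Over all genes, edgeR called 12 for statin in females, against 270 with DESeq2, 148 with no filter, 5 with the block, 0 with each sex alone, and 0 to 75 with a liver left out. In males DESeq2 called 4 against 0. For the interaction DESeq2 called 122 and no filter 103 against 0, with 0 to 14 with a liver left out. On chow DESeq2 called 1946 between the sexes against 1250, with 635 to 1586 with a liver left out. On statin it called 1284 against 751, the stricter filter 500, with 378 to 743 with a liver left out. With 3 livers a group, simulated counts for statin in females gave back 11% of 1.5-fold and 59% of 2-fold changes. Changes between these were not simulated, and the simulated livers were drawn independently of each other.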

Other observations

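Of the genes known to rise with fasting, 0 of 8 passed the adjusted threshold in edgeR for statin in either sex. Of all genes, 0.1% passed it in females and 0% in males. In females 3 of the 8 had an unadjusted p under 0.05, all higher on statin, against 10.5% of all genes. Among them, Fgf21 (a hepatokine) differed by 1.14 and Cpt1a (mitochondrial fatty acid uptake) by 0.67 on the log2 scale. Their unadjusted p-values in edgeR were 0.00403 and 0.0193. The 2 genes with a difference below 0 in females were Pck1 and Ppargc1a. In males Fgf21 was at 1.88 ± 0.399 TMM-normalized CPM on chow and 1.06 ± 0.128 on statin. The list's median was 0.50 in females and 0.01 in males. Among clock genes, 0 of 11 had an unadjusted p under 0.05 for statin in either sex. Of all genes, 10.5% did in females and 1.96% in males. On chow Bhlhe41 was lower in females than in males by 1.75 on the log2 scale (-1.75, adjusted p 0.0180 in edgeR), and on statin by 1.64 (-1.64, adjusted p 0.0316).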
